A study of Mus musculus with 15 samples.

Results

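The regions described here carried a peak of H3K27Ac in pancreatic islets of mice on regular diet (RD) and no peak in islets of mice on high-fat diet (HFD) or on the same diet formulated with the compound O304 (HFD-O304). Peaks of the 3 diets on chromosomes 1 to 19 were joined where they overlapped by at least 1 bp, which gave 25452 regions, and 1085 of these (4.26%) held an RD peak alone. They made up 7.00% of the 15511 regions with an RD peak. The members were therefore chosen by the presence and absence of H3K27Ac peaks, and their peak strength and length are given as a description, without a test. All mice were males of the CBA strain. Each ChIP sample was prepared from about 600 pooled islets, and the 2 samples of a diet were merged by the authors before peaks were called, so each diet is represented by 1 peak list. There is consequently no replicate error for any difference between diets, and no diet was tested against another. O304 is described in the study as an activator of AMPK in all its forms, and the groups differ in what the mice ate.

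H3K27Ac, acetylation of lysine 27 of histone H3, is found at active promoters and enhancers and is widely used to map the regulatory elements of a tissue. H3K27Me3, trimethylation of the same lysine by the Polycomb machinery, is found at silenced genes and in repressed stretches between genes. A single histone tail cannot carry both marks, whereas a population of cells, or the copies of a repeated sequence, can show both at what appears as 1 place.

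Different kinds of sequence recurred among the members: promoters present once in the genome, short tandem arrays, and interspersed repeats. The sequences below are from the GRCm38 reference, which is of the C57BL/6J strain and not of CBA. The first set shows up to 300 bp in the middle of the 3 promoter members with the highest −log10 q, with capitals for matches to any of 15 transcription factor motifs searched on both strands.
Pycrl promoter, chr15:75921185-75921484, + strand: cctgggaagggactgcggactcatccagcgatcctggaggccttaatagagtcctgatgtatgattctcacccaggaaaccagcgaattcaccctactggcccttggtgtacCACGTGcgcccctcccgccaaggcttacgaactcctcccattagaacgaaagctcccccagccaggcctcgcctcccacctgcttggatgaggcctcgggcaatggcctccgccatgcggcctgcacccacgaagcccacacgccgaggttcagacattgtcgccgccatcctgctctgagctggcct
Cep152 promoter, chr2:125624793-125625087, + strand: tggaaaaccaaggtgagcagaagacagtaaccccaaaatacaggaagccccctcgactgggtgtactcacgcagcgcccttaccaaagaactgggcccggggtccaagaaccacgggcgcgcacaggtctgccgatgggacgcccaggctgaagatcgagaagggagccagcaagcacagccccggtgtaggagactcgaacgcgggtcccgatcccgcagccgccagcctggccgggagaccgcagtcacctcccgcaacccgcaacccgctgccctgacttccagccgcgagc
1700019D03Rik promoter, chr1:52992310-52992609, + strand: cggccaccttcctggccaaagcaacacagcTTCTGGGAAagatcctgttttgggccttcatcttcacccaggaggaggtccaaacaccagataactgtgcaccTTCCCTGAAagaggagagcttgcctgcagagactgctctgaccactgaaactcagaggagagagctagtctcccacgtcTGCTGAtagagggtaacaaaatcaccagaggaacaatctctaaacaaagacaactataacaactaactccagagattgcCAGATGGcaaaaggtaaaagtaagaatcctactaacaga
In the Pycrl promoter the capitals mark the E-box CACGTG, which was held by 4.79% of the members and by 5.36% of all H3K27Ac regions in a window of 300 bp. No motif of the set matched in the Cep152 window. In the window of 1700019D03Rik the capitals mark matches to a STAT motif (TTCNNNGAA), a MAF motif (TGCTGA) and a NEUROD1 E-box (CAGATGG). The Pycrl and Cep152 windows had no word of 50 bases that occurred elsewhere in the genome, but every such word in the 1700019D03Rik window did, with a median of 152 copies.

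The next set shows the 3 members of highest −log10 q that lay away from promoters, had under 50% repeat-masked bases and overlapped no H3K27Me3 peak. Capitals mark 1 unit of the tandem array that each turned out to hold.
Msl2 intron, chr9:101097562-101097861, + strand: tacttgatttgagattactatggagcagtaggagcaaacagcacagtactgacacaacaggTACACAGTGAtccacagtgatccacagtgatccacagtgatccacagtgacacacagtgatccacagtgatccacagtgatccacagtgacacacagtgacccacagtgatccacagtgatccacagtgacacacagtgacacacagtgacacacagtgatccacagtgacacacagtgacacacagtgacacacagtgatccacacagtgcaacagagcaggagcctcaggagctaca
Upstream of Tomm7, chr5:23889470-23889759, + strand: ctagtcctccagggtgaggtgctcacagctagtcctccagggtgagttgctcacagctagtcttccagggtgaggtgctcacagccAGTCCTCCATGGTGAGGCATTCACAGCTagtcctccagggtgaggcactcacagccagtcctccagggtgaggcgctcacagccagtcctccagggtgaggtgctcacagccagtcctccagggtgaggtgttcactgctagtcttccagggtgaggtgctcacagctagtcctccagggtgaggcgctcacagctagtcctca
Wdfy1 intron, chr1:79749877-79750176, + strand: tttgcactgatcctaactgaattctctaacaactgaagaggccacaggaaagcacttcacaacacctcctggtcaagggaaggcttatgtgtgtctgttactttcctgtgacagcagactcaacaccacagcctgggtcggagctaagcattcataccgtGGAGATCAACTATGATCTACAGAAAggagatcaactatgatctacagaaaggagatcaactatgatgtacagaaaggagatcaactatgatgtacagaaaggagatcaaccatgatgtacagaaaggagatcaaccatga
The unit was 10 bp in the intron of Msl2, 28 bp in the region upstream of Tomm7 and 25 bp in the intron of Wdfy1. Shifted by 1 unit, the best 100 bases of each array matched themselves at 92, 95 and 98 positions of 100, respectively.

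The third set shows members built from interspersed repeats. Capitals mark the 20-base word shared with many other H3K27Ac regions by which these members were grouped.
Word A member, chr15:53574479-53574756, + strand: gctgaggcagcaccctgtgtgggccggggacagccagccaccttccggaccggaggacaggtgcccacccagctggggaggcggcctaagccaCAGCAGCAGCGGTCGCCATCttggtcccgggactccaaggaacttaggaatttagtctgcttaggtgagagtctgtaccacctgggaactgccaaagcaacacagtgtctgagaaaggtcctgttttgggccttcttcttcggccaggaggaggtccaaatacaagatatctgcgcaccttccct
Word B member, chr6:65260981-65261280, - strand: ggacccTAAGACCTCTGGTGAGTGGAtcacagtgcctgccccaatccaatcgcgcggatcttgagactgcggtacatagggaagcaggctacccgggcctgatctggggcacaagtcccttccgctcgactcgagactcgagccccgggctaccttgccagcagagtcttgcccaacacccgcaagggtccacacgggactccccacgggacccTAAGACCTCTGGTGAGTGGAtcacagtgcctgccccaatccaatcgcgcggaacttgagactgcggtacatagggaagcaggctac
Chl1 intron, word D, chr6:103648502-103648801, + strand: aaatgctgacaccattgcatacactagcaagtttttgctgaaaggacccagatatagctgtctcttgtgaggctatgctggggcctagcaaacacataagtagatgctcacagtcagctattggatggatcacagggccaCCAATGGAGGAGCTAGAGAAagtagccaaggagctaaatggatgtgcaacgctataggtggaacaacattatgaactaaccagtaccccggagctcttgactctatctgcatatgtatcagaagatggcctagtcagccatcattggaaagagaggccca
Word A occurred 6838 times on chromosomes 1 to 19, word B 8637 times and word D 44241 times. The reference used here does not name the repeat families to which these words belong. The word B member is shown in the orientation of the word.

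The RD list rested on 83773042 fragments after removal of duplicates, against 95218072 in HFD and 84694188 in HFD-O304. Calling reached down to a fold over the genomic background of 2.28 with RD fragments, 2.17 with HFD and 2.25 with HFD-O304 fragments. The RD limit was the highest of the 3, so every RD peak, member or not, lay above the lowest fold of both other lists. This says nothing of the signal at the members in the other diets. As a check of the tissue, an RD peak lay at the promoter of 7 of 15 endocrine islet markers, but not at those of Gcg, Sst, Iapp or Neurod1. Of the markers of other cells, 1 of 9 acinar, 2 of 6 ductal, 2 of 7 endothelial, 0 of 7 leukocyte and 0 of 6 mesenchymal promoters had one. A member lay within 50 kb of a start site of 3 of the 7 endothelial markers, against 6.08% of all protein-coding genes that contained a member or had one within that distance. The members at Esam (fold 2.35) and Flt1 (2.41) were at the promoter. HFD and HFD-O304 each had another peak at the Esam promoter and none at that of Flt1. The member at Cdh5 (2.60) was 7.56 kb from a start. Those at Cdh5 and Flt1 overlapped an H3K27Me3 peak of at least 1 diet, and that at Esam did not. A member lay within 50 kb of 2 of 15 endocrine markers (Isl1 and Slc30a8), 1 of 7 leukocyte markers (Lyz2) and none of the acinar, ductal and mesenchymal ones. What part other cell types have in the members was not tested. A peak missing at a promoter shows that no peak was called there, not that the mark was absent.

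The members were short and weak, as were regions called in HFD alone or HFD-O304 alone. Each was formed by a single RD peak. Their fold over background ranged from 2.28 to 369 with a median of 2.44, with 2.35 and 2.59 as the lower and upper quartiles. The −log10 q ranged from 2.09 to 11022 with a median of 2.94. It was under 3 in 565 members (52.1%) and at least 5 in 112 (10.3%), and 10 members reached 10. Regions called in HFD alone had a median −log10 q of 2.87, with 56.1% under 3 and 6.22% of at least 5. For HFD-O304 alone these values were 2.81, 59.5% and 4.39%. Regions shared by the 3 diets had a median fold of 2.88 in the RD list. Length ran from 270 bp, the fragment length of the library, to 2226 bp with a median of 357 bp, against 1346 bp for the shared regions. The median length was 434.5 bp in HFD alone and 433 bp in HFD-O304 alone. Together the members covered 522 kb, or 3.01% of the bases under RD peaks. The median member rested on an estimated 43.6 fragments, computed from pileup and length.

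**Figure D1:**
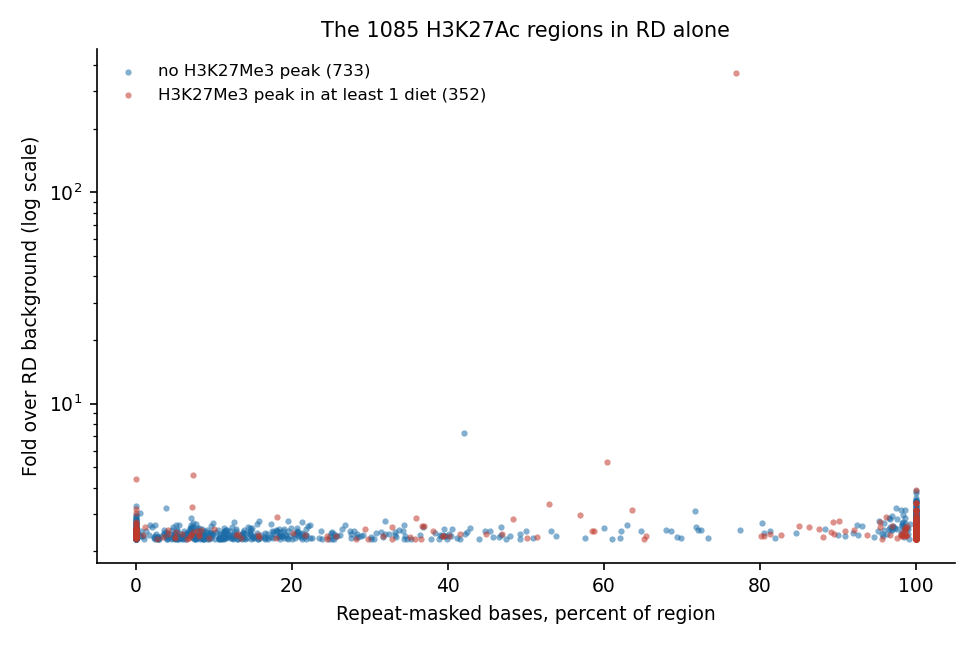
Each point is 1 of the 1085 members, with the percentage of repeat-masked bases on the x axis and the fold over the RD background, on a log scale, on the y axis. Red points overlap an H3K27Me3 peak of at least 1 diet (352) and blue points do not (733). Most points lie in a narrow band above 2.28, with 1 member at 369, and 381 members sit at 100% repeat.

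The threshold of the selection can be seen at its edges. Members near Pxdc1 and Cldn4 were each separated from an HFD peak by 3 bp, and a member near Cxcl13 was 3 bp from an HFD-O304 peak. Just outside the selection, a region near Unc50 (−log10 q 5.38 in RD) shared 2 bp with an HFD peak. An HFD or HFD-O304 peak lay within 1000 bp of 87 members (8.02%). The median distance to the nearest peak of either diet was 26.8 kb. At the weakest end, members near Tbc1d8, Ikbke and Itpkb had the lowest −log10 q that the list contains, 2.09, at a fold of 2.28.

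Few members were at promoters. Of the 1085, 105 (9.68%, 95% Wilson interval 8.06 to 11.6) came within 1000 bp of the start of a protein-coding transcript. The share was 69.8% (69.0 to 70.6) for regions shared by the 3 diets, an odds ratio of 0.0463 for the members, and the −log10 of the adjusted p was 347. Most shared regions were stronger than the members, and among the 4004 between the 5th and the 95th percentile of the members' −log10 q (2.13 to 6.31) the share was 44.3%, with an odds ratio of 0.135 (exact test, adjusted p = 3.5e-112). Regions called in RD and 1 other diet had 18.1% with HFD and 23.3% with HFD-O304. Compared with regions called in HFD alone, of which 13.9% (12.9 to 15.0) were at promoters, the odds ratio was 0.663 (Fisher's exact test, adjusted p = 0.00022). Against HFD-O304 alone, with 16.4% (15.1 to 17.7), it was 0.548 (exact test, adjusted p = 5.2e-08). These are two-sided Fisher's exact tests over regions, adjusted for 9 comparisons by the Benjamini-Hochberg method. They take regions of 1 list as units and say nothing of the spread between animals. Both differences from the single-diet regions lost significance once peaks with at least 50% repeat-masked bases were left out, with odds ratios of 0.870 and 0.856 (exact test, adjusted p = 0.30 for each). Of the other members 415 (38.2%) had their midpoint in an intron and 529 (48.8%) between genes, while 18 lay in a coding exon and 18 in an untranslated one. The median distance to a start site was 36.5 kb, against 24.6 kb for HFD alone and 18.5 kb for HFD-O304 alone.

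**Figure D2:**
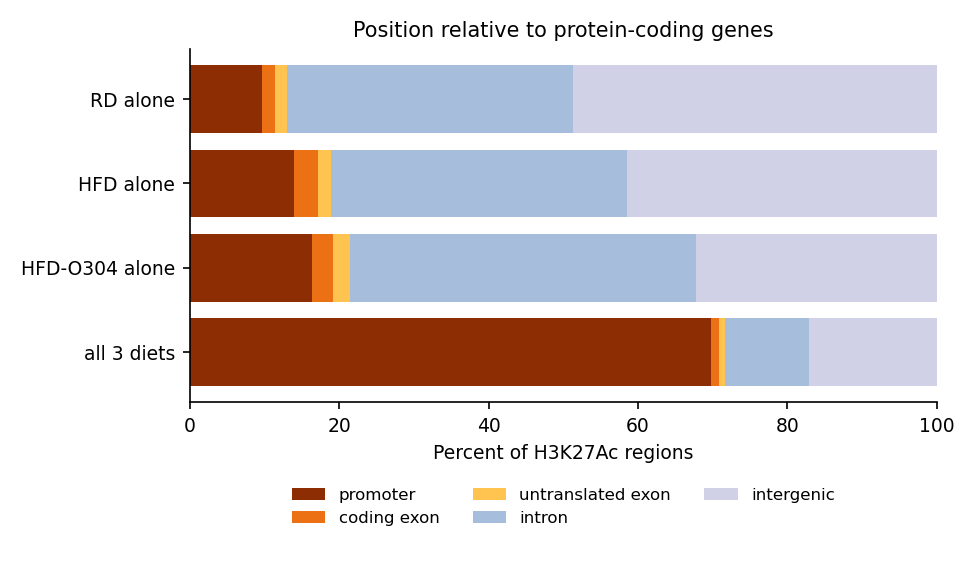
Bars give the percentage of H3K27Ac regions (x axis) at promoters, in coding or untranslated exons, in introns and between genes for the 4 classes on the y axis. Promoters take 9.68% of the members and 69.8% of the regions shared by the 3 diets, and 48.8% of the members lie between genes.

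Among the promoter members, fold over background ranged from 2.28 to 3.03 with a median of 2.46. The highest was at Pycrl, an enzyme of proline synthesis, at a fold of 3.03 (−log10 q 6.58). The promoter of Cep152, a protein of centriole duplication, followed with a fold of 2.97. Both peaks lay within 100 bp of a start site, and the nearest HFD peak was 7.26 kb away from the former and 47.6 kb from the latter. The uncharacterised gene 1700019D03Rik had a fold of 2.95 over a region that was repeat-masked throughout. Next came Skap2, an adaptor of Src family signalling, with a fold of 2.93, and Spag9, a scaffold of JNK signalling, with 2.90. The tubulin-modifying enzyme gene Ttll13 had a fold of 2.85, and Ruvbl1, an ATPase of chromatin remodelling complexes, had 2.83. Mrpl22 of the mitochondrial ribosome had 2.78, Ccdc170 had 2.76 and the cytokine gene Lif had 2.74. None of these 10 promoters overlapped an H3K27Me3 peak, and 26 of all 105 promoter members did. For 8 of the 10 the nearest HFD peak was more than 7 kb away, whereas those near Lif and Mrpl22 were at 2.81 kb and 3.25 kb.

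Many members consisted of repeat-masked sequence. At least 50% of the bases were repeat-masked in 499 members (46.0%, 43.0 to 49.0), and in 381 (35.1%) all bases were. Among shared regions the repeat-rich share was 10.2% (9.73 to 10.8), giving an odds ratio of 7.46 for the members (Fisher's exact test, adjusted p = 2.8e-174), or 14.9% and 4.88 with shared regions of −log10 q from 2.13 to 6.31. The share was 27.9% (26.5 to 29.3) in HFD alone (odds ratio 2.20, exact test, adjusted p = 2.7e-28) and 17.5% (16.2 to 18.9) in HFD-O304 alone (odds ratio 4.00, adjusted p = 7.1e-71). Regions called in RD and 1 other diet were closer to the members, with 42.3% (39.1 to 45.5) for RD and HFD and 32.9% (29.1 to 37.0) for RD and HFD-O304, and they were not tested. A high repeat-rich share was therefore not limited to the members. These 3 tests passed the threshold under each other setting that was tried on them, but the size of the difference moved. Against HFD alone the odds ratio fell to 1.69 with a common fold cutoff and 1.37 with lists of equal size (38.8% against 31.6%). It rose to 6.13 among regions of −log10 q of at least 5. The median GC content was 51.2%, below the 54.4% of HFD alone and the 54.1% of HFD-O304 alone. Within the repeat-rich regions it was 49.7% in the members, 59.9% in HFD alone and 59.0% in HFD-O304 alone. Other repeat-rich regions with an RD peak were nearer to the members. Their median GC content was 51.4% in the shared regions, 53.1% in RD and HFD-O304 and 54.9% in RD and HFD.

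**Figure D3:**
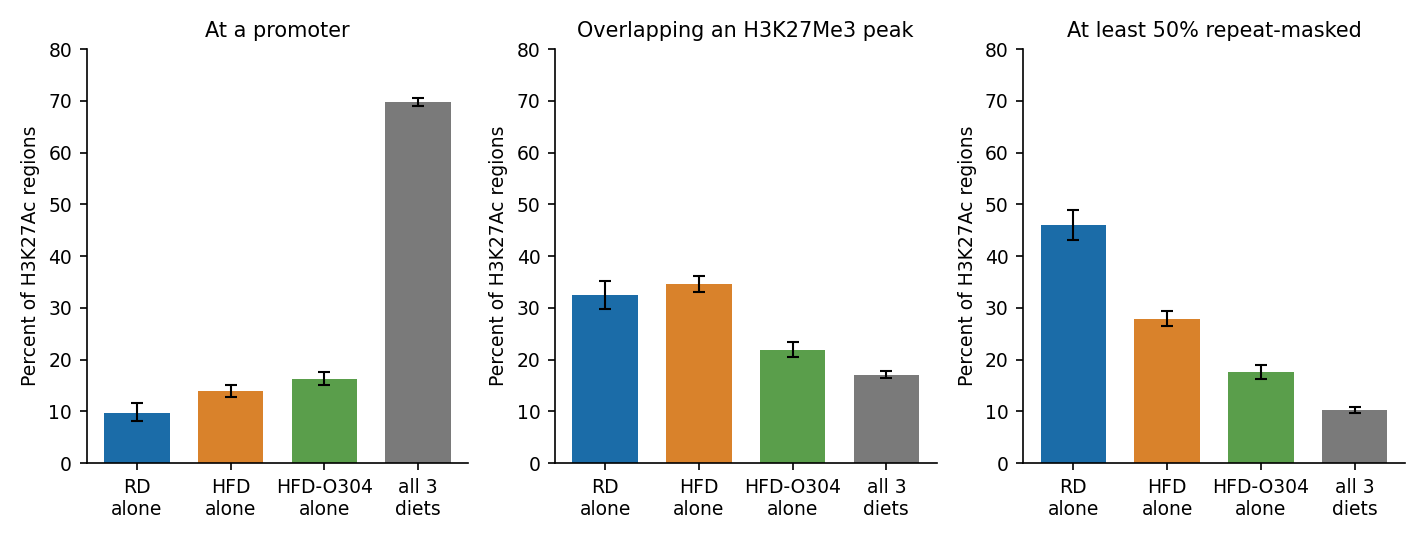
Bars show the percentage of H3K27Ac regions (y axis) at a promoter, overlapping an H3K27Me3 peak of any diet, and with at least 50% repeat-masked bases in 4 classes of regions (x axis). Error bars are 95% Wilson intervals. The RD-alone regions have the lowest promoter share, 9.68%, and the highest repeat-rich share, 46.0%, of the 4 classes drawn, which leave out regions called in 2 diets.

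The stronger a member, the more often it was a repeat. The repeat-rich share was 27.7% (22.9 to 33.1) in the 292 members with a −log10 q from 2 to 2.5, 49.1% (43.5 to 54.8) in the 293 from 3 to 4 and 82.1% (74.0 to 88.1) in the 112 of 5 and over. For the same bins it was 20.2%, 31.9% and 42.9% in HFD alone, and 13.5%, 18.9% and 28.0% in HFD-O304 alone. Of the 100 strongest members 81 were repeat-rich, and of the 100 weakest 21 were. Promoters did not become more frequent with strength among the members, with 8.90% in the lowest bin and 6.25% in the highest, while in HFD alone they rose from 10.0% to 26.1% and in HFD-O304 alone from 11.1% to 28.0%. The trends were not tested.

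**Figure D4:**
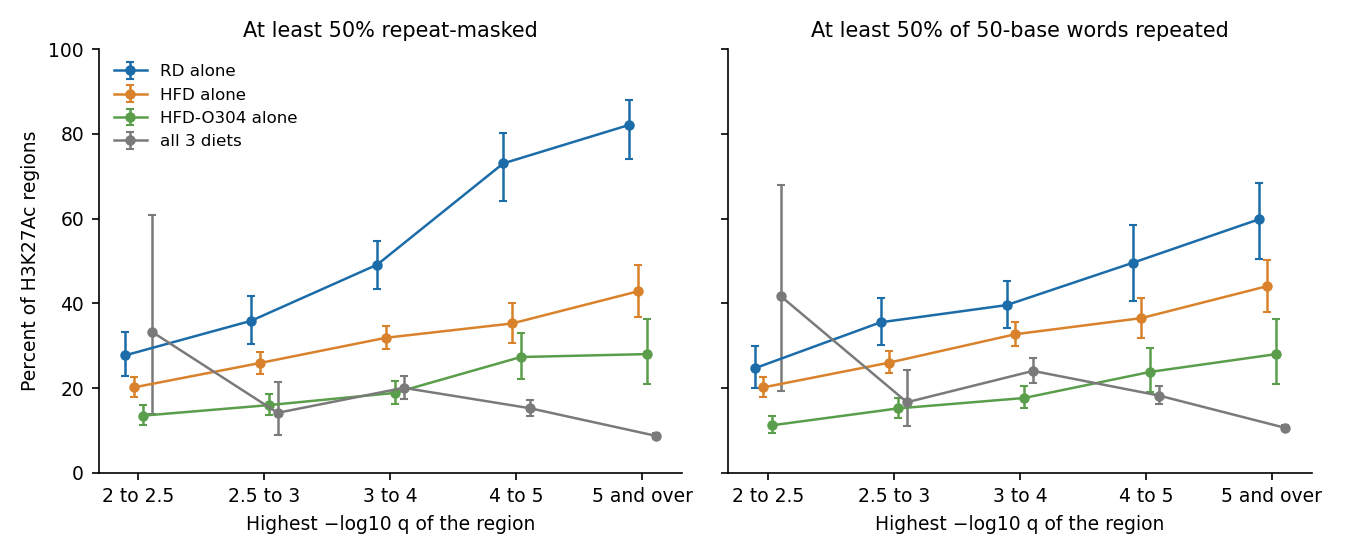
The x axis gives bins of the highest −log10 q of a region and the y axis the percentage of regions that are repeat-rich (left) or have at least 50% of their 50-base words elsewhere in the genome (right), for 4 classes, with 95% Wilson intervals. Among RD-alone regions the repeat-rich share climbs from 27.7% to 82.1%. The bin from 2 to 2.5 holds 12 regions shared by the 3 diets.

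How often the sequence of a member occurs in the genome was then counted, since a read from a repeated sequence can be placed at more than 1 position. All exact words of 50 bases in the middle 300 bp of each region were looked up on chromosomes 1 to 19, X and Y. In 469 members (43.2%, 40.3 to 46.2) every word occurred once, against 60.8% (59.3 to 62.3) in HFD alone, 74.1% (72.5 to 75.7) in HFD-O304 alone and 80.7% (80.0 to 81.4) in the shared regions. In 409 members (37.7%) at least 50% of the words occurred elsewhere, with a median of 49 copies. This share was 28.4% in HFD alone, 16.0% in HFD-O304 alone and 12.4% in the shared regions, while 382 of 932 regions (95% interval 37.9% to 44.2%) were of this kind in RD and HFD, and 33.6% (29.8 to 37.7) in RD and HFD-O304. Of the 499 repeat-rich members 361 were of this kind, while 138 were repeat-masked but of sequence found mostly once. These counts were chosen after seeing the data and were not tested. How the aligned reads with several positions were treated is not given in the sources used here, and the part of multiple placement in the peaks was not tested.

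Tandem arrays were found in 101 members (9.31%, 7.72 to 11.2), compared with 7.62% (6.83 to 8.49) in HFD alone, 6.38% (5.56 to 7.31) in HFD-O304 alone and 3.71% (3.40 to 4.05) in the shared regions. Regions called in RD and HFD had 7.94% (6.37 to 9.85), and those in RD and HFD-O304 had 8.82% (6.72 to 11.5). An array was counted where 100 bases in a row matched at 85% or more after a shift of 5 to 100 bp. The unit had a median of 29 bp, none of the arrays was at a promoter, and 64 overlapped an H3K27Me3 peak. Only 47 of them were in repeat-rich members, so that arrays made up 9.22% of the members under 50% repeat, against 6.13% of such regions in HFD alone and 4.19% in HFD-O304 alone. Such regions had 6.32% in RD and HFD and 8.22% in RD and HFD-O304. Among repeat-rich regions arrays were in 9.42% of the members, 11.5% of HFD alone, 16.7% of HFD-O304 alone and 17.8% of the shared regions. There the share was 10.2% in RD and HFD and 10.1% in RD and HFD-O304. Of the 25 strongest members, 20 held an array or had at least 50% of their words elsewhere.

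Without repeat-rich regions, regions of repeated words and tandem arrays, 514 members (47.4%) remained. Their median fold was 2.39 and their median −log10 q 2.67, and 11 of them reached a −log10 q of 5. Of these 514, 103 (20.0%) were at promoters and 54 (10.5%) overlapped an H3K27Me3 peak.

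The 10 strongest members were all away from promoters, and 7 of them were repeat-rich. The first, at chr6:103648051-103649295 in an intron of Chl1, a neural cell adhesion molecule, had a fold of 369 over 1245 bp. The same place held an H3K27Me3 peak in RD, HFD and HFD-O304 with folds of 476, 594 and 571, yet no H3K27Ac peak lay within 65 kb of it in HFD or HFD-O304. Repeat-masked bases made up 76.9% of it, and 61.8% of the 50-base words in its middle occurred elsewhere. The member in the intron of Msl2, whose protein belongs to a histone acetyltransferase complex, had a fold of 7.29 and no H3K27Me3 peak. A member in an intron of Trhde, an ectoenzyme that cleaves thyrotropin-releasing hormone, had a fold of 5.30. It overlapped H3K27Me3 peaks of all 3 diets with folds from 4.20 to 4.96, and the nearest HFD peak of H3K27Ac was 5.71 kb away. It belonged to a group of 10 members within 270 kb. At chr12:97061471-97061786, more than 1 Mb from any coding start, the fold was 4.59, with H3K27Me3 folds from 10.5 to 13.9. A member of 356 bp in an intron of Washc2, a subunit of the endosomal WASH complex, had a fold of 4.38 and held 100 bases that matched themselves at every position after a shift of 24 bp. The other 5 had folds from 3.51 to 3.88 and were fully repeat-masked, and 1 of them, near Col12a1, also carried H3K27Me3 in all 3 diets.

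Away from promoters, 416 members had under 50% repeat and no H3K27Me3 peak, the combination usual for a distal enhancer. Their folds ranged from 2.28 to 7.29 with a median of 2.38, and their median length was 414 bp. Of the 10 strongest, 5 held a tandem array, namely those in introns of Msl2, Wdfy1, Pde3b and Hs6st3 and upstream of Tomm7. Over all 416 the arrays numbered 24. The other 5 were of sequence found once. They lay in an intron of Tbc1d1, a regulator of glucose transporter traffic (fold 2.87), in a coding exon of the adhesion gene Hepacam (2.83), between genes near Prom1 (2.78) and near the endoderm factor gene Sox17 (2.77), and in an intron of Myo3a (2.77). The 5 longest members also had a middle part found once in the genome. A region of 2226 bp lay 19.5 kb from a start site of Noct, and regions of 2145 bp and 1819 bp lay in introns of Igfbp7 and Cacna1d. A region of 1979 bp upstream of Trhde overlapped an H3K27Me3 peak in HFD, and a region of 1744 bp reached the promoter of Slc7a2, a transporter of cationic amino acids. Folds in these 5 were between 2.28 and 2.48.

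Motifs were compared in windows of 300 bp with those of all H3K27Ac regions. The CCAAT box (CCAAT) was held by 36.0% of the members against 26.8% of all regions, and the STAT motif by 11.3% against 6.24%. In the repeat-rich members these shares were 47.1% and 13.4%. In the 483 members under 50% repeat and away from promoters the CCAAT box was at 28.4%, close to the 26.7% of all such regions, and the STAT motif at 10.1% against 7.54%. In the same 483 members the forkhead motif TGTTTAC was found in 3.93% (all such regions 4.25%), the homeobox motif TAATTA in 5.18% (4.68%), the NEUROD1 E-box in 9.32% (8.47%), and AP-1 (TGANTCA) in 8.49% (8.93%). The GC box (GGGCGG), typical of CpG-rich promoters, was in 14.6% of the members and 35.1% of all regions. It was in 19.2% of HFD alone, 16.9% of HFD-O304 alone, 23.2% of RD and HFD and 20.8% of RD and HFD-O304. No member held the RFX or HNF1 motif, which were rare, in 50 (0.196%) and 2 (0.00786%) of all regions. Regions called in RD and HFD-O304 also had no RFX match. None of these shares was tested, and a match is not evidence of binding.

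Repressive chromatin was called at many members. An H3K27Me3 peak of at least 1 diet overlapped 352 of them (32.4%, 29.7 to 35.3). This was more than in the shared regions, where the share was 17.1% (16.5 to 17.8; odds ratio 2.32, Fisher's exact test, adjusted p = 2.9e-31; 26.7% of shared regions of −log10 q from 2.13 to 6.31, odds ratio 1.32, adjusted p = 0.00028), and more than in HFD-O304 alone, where it was 22.0% (20.5 to 23.5; odds ratio 1.71, adjusted p = 2.9e-11). Against HFD alone, with 34.6% (33.1 to 36.1), the difference did not pass the test (odds ratio 0.908, exact test, adjusted p = 0.19), but with a common fold cutoff for the 3 lists the members had the lower share (33.2% against 39.6%, odds ratio 0.758, exact test, adjusted p = 0.00012). Without regions of repeated words the difference from HFD-O304 alone did not pass either, at 12.4% against 10.7% (odds ratio 1.18, exact test, adjusted p = 0.24). Regions called in RD and HFD had 43.5% (40.3 to 46.7) and those called in RD and HFD-O304 33.6% (29.8 to 37.9), also without a test. In 204 of the 352 members H3K27Me3 was called in all 3 diets. Only the RD list had it at 23 members, only the HFD list at 22 and only the HFD-O304 list at 24. HFD and HFD-O304 together held H3K27Me3 without RD at 18 further members. At the members the median H3K27Me3 fold was 3.12 for RD, 3.37 for HFD and 3.43 for HFD-O304 peaks, and over the whole lists it was 2.91, 3.17 and 3.08.

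The 2 marks met mainly in repeats. In repeat-rich members 51.9% (47.5 to 56.3) overlapped H3K27Me3, and in the others 15.9% (13.1 to 19.05). The former share was below those of repeat-rich regions in HFD alone (76.9%, 74.3 to 79.3), in HFD-O304 alone (69.7%, 65.6 to 73.5) and in the shared regions (86.3%, 84.4 to 88.1). The latter lay between 11.8% (10.6 to 13.1) in HFD-O304 alone and 18.2% (16.8 to 19.7) in HFD alone.

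To see which repeats these were, the 20-base words held by most repeat-rich H3K27Ac regions of any class were taken one after another. These 6 words were chosen after seeing the data and are given without a test. Word A was in 64 members (5.90%), and all 64 overlapped H3K27Me3. Word B was in 55 members (5.07%), of which 52 did. The shares of regions with word A and word B were 5.94% and 5.28% in HFD alone, close to those of the members, and 2.86% and 3.16% in HFD-O304 alone. They were 9.98% and 7.40% in RD and HFD, and 7.90% and 4.60% in RD and HFD-O304. Words C and F were in 13 and 7 members. Words D and E came from sequences with far more copies, 44241 and 33955, and with little H3K27Me3. Word D was in 25 members (2.30%), against 0.635% of HFD alone and 0.332% of HFD-O304 alone, and 15 of the 25 overlapped H3K27Me3. Regions called in RD and 1 other diet were nearer to the members. They held word D at 1.61% with HFD and 1.65% with HFD-O304, and the shared regions at 0.795%. Word E was in 9 members, with H3K27Me3 at 2. At least 1 of the words was in 34.5% of the repeat-rich members, compared with 50.7% in HFD alone and 43.0% in HFD-O304 alone. The share was 53.0% in RD and HFD, 50.3% in RD and HFD-O304 and 40.5% in the shared regions.

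All copies of a word in the genome can also be asked for their marks, whether or not they lie in a member. The words were picked from repeat-rich H3K27Ac regions of these same lists, so the shares are not independent of the peak calls. Of such regions 1099 were in HFD alone, 528 in HFD-O304 alone and 499 in RD alone. Of the copies of word A, 15.1% lay in an H3K27Ac peak with RD, 25.5% with HFD and 18.1% with HFD-O304. The percentages for word B were 6.75%, 13.6% and 8.46%, and those for word C 8.91%, 20.3% and 11.6%. RD was thus the diet with the fewest called copies of these words. That RD alone was called at the members that hold them follows from how the members were chosen. The RD list was also the shortest, with 15847 H3K27Ac peaks on the chromosomes used, against 21021 for HFD and 19787 for HFD-O304. What part the length of the lists has in these shares was not tested. Of the word D copies 0.355% were in an RD peak of H3K27Ac, 0.346% in an HFD peak and 0.283% in an HFD-O304 peak. In the same order of diets, H3K27Me3 covered 69.8%, 63.9% and 74.7% of the word A copies, but 0.954%, 0.891% and 2.22% of the word D copies. The lists differ in depth and in number of peaks, and copies share sequence, so these percentages carry no error.

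**Figure D5:**
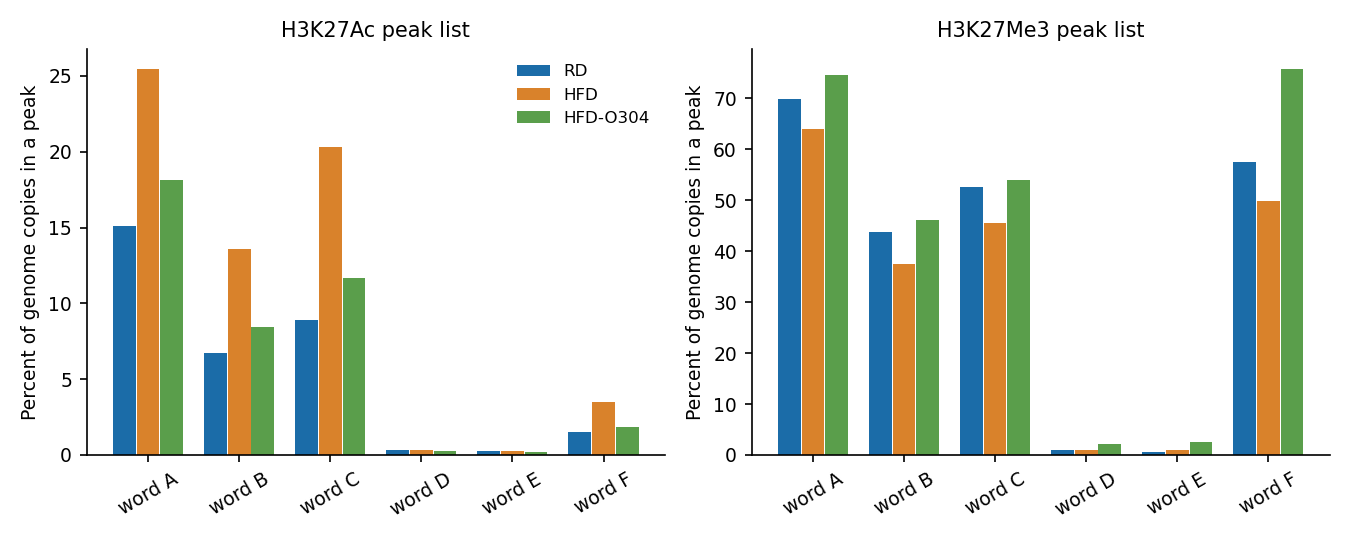
Bars give the percentage of all genome copies of each of 6 repeated 20-base words (x axis) that lie in an H3K27Ac peak (left) or an H3K27Me3 peak (right) of RD, HFD and HFD-O304. For words A, B and C the H3K27Ac bar is lowest in RD, and H3K27Me3 covers between 37.6% and 74.7% of their copies. Words D and E are below 3% in both panels.

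By gene, 1265 of 20807 protein-coding genes (6.08%) contained a member or had 1 within 50 kb of a start site, and 926 (4.45%) did so for a member under 50% repeat. Of 7 gene lists, 4 had any such gene. A longer gene gives a wider window, and no correction was made for it.

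In the list of beta cell transcription factors 2 of 20 genes had a member, with 6.08% as the share over all genes. A member of 273 bp with a fold of 2.43 lay 12.2 kb downstream of the start of Isl1, a LIM homeobox factor of islet cells. Another with a fold of 2.36 lay 26.5 kb upstream of Nfia. Both had no repeat-masked bases and no H3K27Me3 peak, and both had HFD and HFD-O304 peaks of H3K27Ac within 5 kb. The 20 genes all had a region shared by the 3 diets in the same window.

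Genes of stimulus-secretion coupling and of the granule had a member at 9 of 35, with 6.08% as the share over all genes. The 9 were Abcc8, Cacna1c, Cacna1d, Pcsk2, Ptprn2, Slc2a2, Slc30a8, Syt13 and Vamp2, with 12 members among them, and 6 had a member under 50% repeat (4.45% over all genes). Regions of the other single diets were also frequent at this list. HFD alone had 1 at 19 of the 35 genes and HFD-O304 alone at 18, beside 4702 and 3993 of all 20807 genes. Ptprn2, a protein of the granule membrane, held the strongest, with a fold of 3.34 in an intron 192 kb from the start, at 53.0% repeat and with H3K27Me3 in HFD-O304. Slc2a2, the glucose transporter GLUT2, had a member with a fold of 2.56 in an intron, 6.43 kb from its start. It was at 87.6% repeat, and the nearest HFD peak was 1.31 kb away. In Pcsk2, the prohormone convertase PC2, the strongest of 3 intronic members had a fold of 2.53. A member in Abcc8, the sulphonylurea receptor of the KATP channel, had a fold of 2.51, no repeat-masked bases and an HFD peak at 2.69 kb.

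Of the 22 genes of stress, dedifferentiation and the unfolded protein response, Ddit3, Txnip and Xbp1 had a member, beside 6.08% of all genes. A member 3.13 kb upstream of Txnip, an inhibitor of thioredoxin induced by glucose, had a fold of 2.36 with an HFD peak 2.04 kb away. A member in an untranslated exon of Xbp1, a transcription factor of the unfolded protein response, had a fold of 2.34, with an HFD-O304 peak at a distance of 84 bp. A further member 49.9 kb upstream of Xbp1 had a fold of 2.52. The member assigned to Ddit3, which encodes CHOP, was 36.0 kb from its start, in an exon of Arhgap9, with a fold of 2.56 and H3K27Me3 in all 3 diets.

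Insulin signalling, AMPK and energy metabolism had 7 of 31 genes with a member, all under 50% repeat, beside 4.45% over all genes for that kind. They included Akt2, Irs2, Prkab2 and Prkag2, and the latter pair encode subunits of AMPK. A member 29.7 kb downstream of the start of Irs2, an adaptor of the insulin receptor, had a fold of 2.61 and no HFD peak within 24 kb. At Akt2, a kinase of insulin signalling, a member with a fold of 2.42 lay at an internal transcript start and 156 bp from an HFD peak. In an intron of Prkag2 the fold was 2.38, and an HFD peak lay 484 bp away. No gene of the circadian clock (20 genes), of the immediate early class (23) or of the cell cycle (20) had a member, beside 6.08% of all genes. At that share lists of this size would hold few, and the absence was not tested. Shared regions lay at 19, 22 and 16 of the clock, immediate early and cell cycle genes.

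Each chromosome held between 19 and 90 of them, and they took between 2.57% (1.94 to 3.40) of the H3K27Ac regions on chromosome 11 and 6.65% (5.43 to 8.11) on chromosome 3. Another RD peak lay within 10 kb of 233 members (21.5%), and the median distance to the nearest was 41.9 kb.

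Along the chromosomes some members lay in groups. Joined where at most 100 kb lay between them, 35 members fell into 8 groups of at least 3. The largest held 10 members at chr10:114732589-115002691, in and upstream of Trhde, of which 9 were nearest to that gene, with folds from 2.28 to 5.30. Of these 10, 2 were repeat-rich and 6 overlapped H3K27Me3. The same 270 kb held 27 H3K27Ac regions in all, of which 7 were called in HFD alone and 3 in HFD-O304 alone. A further 4 members, all repeat-rich, lay beside it at chr10:114471822-114632353. At chr13:12572645-12628099, 5 members nearest to Ero1lb, an oxidase of disulfide bond formation expressed in the pancreas, had folds from 2.28 to 2.55, and none was repeat-rich or overlapped H3K27Me3. Another 4 lay nearest to Slco3a1 on chromosome 7. Over chromosomes 1 to 19 there were 0.441 members per Mb. The groups were looked for after seeing the data and were not tested, and members of 1 group count as separate regions in every share given here.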

How the data were processed

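ChIP-seq was analysed for 2 histone marks and 3 diets, with 2 samples per mark and diet; the 3 input samples were not used here. The authors aligned paired-end reads to GRCm38 with Bowtie2, merged the samples of a group and ran MACS 2.1.2 in its broad mode. The q cutoff was 0.01 per the file headers, no control was given and 1 fragment was kept per position. Kept fragments numbered 83773042 to 95218072 for H3K27Ac and 54166902 to 74870300 for H3K27Me3. For each peak the deposited lists give the mean pileup, a coverage signal in fragments per base, and its −log10 q. The fold enrichment in the deposited lists is a ratio to a uniform background, so a fold near the limit depends on depth.

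Groups followed the sample titles. H3K27Ac peaks on chromosomes 1 to 19 overlapping by 1 bp were joined. Promoters lay within 1000 bp of a protein-coding transcript start (GENCODE mouse release 21), and bases in lower case in the reference counted as repeat-masked. Shares were compared over regions by Fisher's exact test, two-sided, with Benjamini-Hochberg adjustment over 9 tests. 95% Wilson intervals cover counting error only. Python 3.11.15, pandas 2.3.3, SciPy 1.17.1 and pysam 0.24.0 were used, and the joining and the tests were tested on simulated data. Members, gene lists and motifs were chosen with earlier results of these data known. Named were the 10 members with the highest −log10 q, the 10 highest at promoters, the 10 highest away from promoters with under 50% repeat and no H3K27Me3 peak, the 5 longest, and up to 4 per gene list within 50 kb, of which 1 is not reported here. Other genes named were added for the edges of the selection, the marker check and groups of neighbouring members. Alternatives changed the overlap, the q and fold limits, list size, chromosomes, windows and repeats.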

Additional observations from a re-analysis of the deposited data

How the results depend on the processing

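No paired analysis was possible because each peak list came from merged samples, and no replicate could be left out for the same reason. Leaving out every region with a peak of any diet under a −log10 q of 3 took the number of members from 1085 to 520, and under 5 to 112. These are the members at or above the limit, since this setting removed regions and could add no member. The number became 1949 with lists of equal size and 618 without repeat-masked peaks. Removing regions of repeated words, chosen after seeing the data, left 676, and removing tandem arrays too left 637. In this order of settings the promoter share (9.68%) moved to 6.25% at a −log10 q of 5, 12.5% with equal lists, 16.8% without repeat-masked peaks, 15.4% and 16.3%, and to 12.1% with a window of 2500 bp. The H3K27Me3 share (32.4%) became 28.6% at a −log10 q of 5, 17.96% without repeat-masked peaks, 12.4% and 10.2% without repeated words and then arrays, and 19.4% with H3K27Me3 peaks of a −log10 q of at least 5. The repeat-rich share (46.0%) became 42.6% with an overlap of 50% of the shorter peak, 61.5% and 82.1% at a −log10 q of 3 and 5, 38.8% with equal lists, 43.0% at 80% repeat, and 20.4% and 19.3% without repeated words and then arrays.

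Of 114 tests under alternatives 100 kept their side of the threshold and none changed direction. The H3K27Me3 difference from HFD alone passed, with fewer members overlapping, at a −log10 q of 3 (odds ratio 0.686), of 5 (0.460), at a common fold cutoff (0.758), with equal lists (0.829) and over all chromosomes (0.869). That from HFD-O304 alone was lost at a −log10 q of 5 (1.03) and without repeated words (1.18) and arrays (1.04). The promoter differences were lost without repeat-masked peaks (0.870 for HFD alone, 0.856 for HFD-O304 alone), repeated words (0.788 and 0.787) and arrays (0.815 and 0.817). Between the 5th and 95th percentile of the members' −log10 q, the odds ratios against shared regions were 0.135 for promoters, 1.32 for H3K27Me3 and 4.88 for repeat-rich regions, nearer to 1 than the 0.0463, 2.32 and 7.46 without that limit. The cause of these changes was not tested. Depth limits absence: a region without a peak may hold fragments below the limit.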
